A study of Mus musculus with 10 samples.

Results

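The 35 genes described here are markers of macrophages and other leukocytes and components of antigen presentation by major histocompatibility complex (MHC) class II, read across 3 skeletal muscles of wild-type mice. They were taken from a list of symbols drawn up with earlier results of these data known. All 35 had a row among the 16112 genes of the count tables. That means that each had at least 10 reads in at least 3 of the 10 libraries, so that a macrophage gene below this level in muscle could not have been a member. The members fell into 7 roles, namely 6 general leukocyte genes, 9 genes of macrophage identity, 5 scavenger receptors and lectins of resident macrophages, 4 complement genes, 3 immunoreceptor adaptors and Fc receptors, 6 genes of MHC class II presentation, and 2 genes of the phagosome and endosome.

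Macrophages lie in the connective tissue between muscle fibers, along vessels and next to tendon insertions, where they clear debris and take up matrix and serum components through scavenger receptors. Peptides from engulfed material are loaded in endosomes onto MHC class II heterodimers, whose assembly and release depend on the invariant chain and on cathepsin S, and are shown to helper T cells together with costimulatory ligands. Fibers themselves express little of this machinery, and in whole muscle it is carried by a small fraction of the cells.

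RNA from whole muscles was depleted of ribosomal and globin RNA and sequenced. The extensor digitorum longus (EDL), a fast muscle of the lower leg, was represented by 3 libraries, psoas, a fast muscle of the lower back, by 3, and soleus, a slow postural muscle of the lower leg, by 4. All mice were homozygous wild-type animals aged 32 to 54 days from a colony of strain B6C3Fe a/a-Ttnmdm/J, in which the mdm allele of the titin gene segregates, and 1 library was made per muscle sample. EDL 1, EDL 2, psoas 1, psoas 2 and soleus 1 came from males, EDL 3, psoas 3, soleus 2 and soleus 4 from females, and no sex was given for soleus 3. EDL 3 and soleus 2, psoas 1 and soleus 1, and psoas 3 and soleus 4 shared an animal by its code. Only EDL 1, EDL 2, psoas 1 and psoas 2 had their reads quality-trimmed before alignment, all of them from males, so trimming cannot be told apart from sex in EDL and psoas, and soleus had no trimmed library. Total counts per library lay between 12737971 and 50431713. The 10 skeletal muscle markers summed to 102063 to 135583 in EDL, 155564 to 185965 in psoas and 107218 to 125787 in soleus normalized CPM (counts scaled to library size with TMM factors). Every library was therefore muscle by its defining genes.

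The mean level was highest in EDL for 33 of the 35 members, against 36.6% of all genes. The order of the means was EDL, soleus, psoas in 28 members, EDL, psoas, soleus in 5, soleus, EDL, psoas in Lyve1 and soleus, psoas, EDL in Cd74. The summed level of the 35 members was 452, 532 and 208 in EDL 1 to 3, 186, 233 and 95.2 in psoas 1 to 3, and 267, 208, 192 and 176 in soleus 1 to 4 (normalized CPM). EDL 1 and EDL 2 stood above all other libraries in this sum, EDL 3 lay within the range of soleus, and psoas 3 was the lowest. By single members, the highest value was in EDL 2 for 26 (9.97% of all genes), in EDL 1 for 7 (16%) and in soleus 1 for 2, and the lowest was in psoas 3 for 28 (11.4%). EDL 1 and EDL 2 both exceeded all 8 other libraries for 29 members (14.6% of all genes), and EDL 3 lay below both of them for 34 (42.2%), all but H2-Ab1. These positions were chosen after the values were seen. In RNA from whole muscle, fewer cells of a type cannot be told apart from less RNA per cell.

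**Figure D1:**
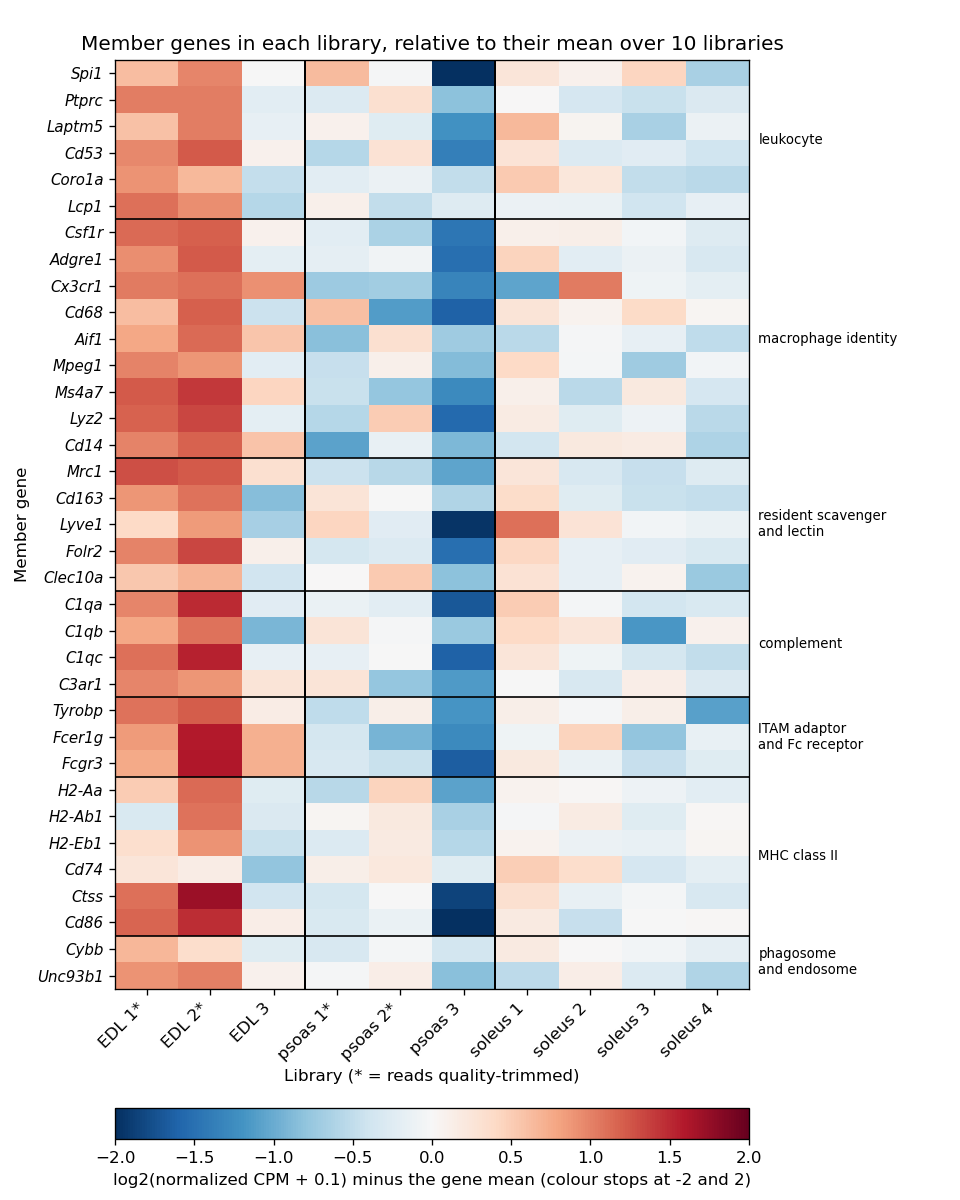
Level of each of the 35 members (rows, grouped by role) in each of the 10 libraries (columns), as log2(normalized CPM + 0.1) minus the gene's mean over the libraries. EDL 1 and EDL 2 are red for nearly every member and psoas 3 is the bluest column. The row of Cybb is the palest, and those of Cd74, H2-Eb1 and H2-Ab1 are among the paler ones.

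The first question, as EDL and psoas are both classed as fast, was whether the 2 fast muscles, EDL and psoas, carried the same level of these genes. A gene was called where the quasi-likelihood test of edgeR gave an adjusted p below 0.01 and the fold change was over 2. By this rule 1 of the 35 members was called, Mrc1, which was lower in psoas. Log2 fold changes are given ± SE, and adjusted p-values are from edgeR unless another tool is named. Over all genes 1.57% were called lower in psoas and 2.11% in either direction. At an adjusted p below 0.05 with the same fold change, 9 members were lower in psoas and 0 higher, where 5.05% of all genes were lower and 2.61% higher. The log2 fold change was negative for 34 of the 35, against 49.5% of all genes, and its median was -1.18 over the members and 0.01 over all genes. For 11 members every psoas library lay below every EDL library, which held for 16.3% of all genes (13.4% for the opposite order, with 0 members). An unadjusted p below 0.05 was found for 24 members, against 29% of all genes.

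The same question for the slow muscle gave 1 call as well. Mrc1 was lower in soleus than in EDL, where 2.18% of all genes were called lower in soleus and 5.77% in either direction. At an adjusted p below 0.05, 7 members were lower and 0 higher, against 6.02% and 5.48% of all genes. Of the 35 log2 fold changes, 33 were negative (53.1% of all genes), with a median of -0.91 against -0.05 over all genes. Soleus and EDL did not overlap for 8 members, each lower in soleus (14.3% of all genes, with 15.2% higher). An unadjusted p below 0.05 was found for 19 (35%). The 2 comparisons share the EDL libraries. Between soleus and psoas, edgeR, DESeq2 and limma-voom called 0 members, where edgeR called 5.69% of all genes, 2.71% of all genes being lower in soleus. At an adjusted p below 0.05 the count was also 0, against 4.4% lower and 5.3% higher of all genes. Only Cx3cr1 had an unadjusted p under 0.05, against 28.4% of all genes. Of the 35 log2 fold changes 5 were negative (48.6% of all genes), the median was 0.29, and the 2 muscles overlapped for every member, where 11.9% of all genes did not overlap with soleus lower and 13.9% with soleus higher.

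The count of calls depended on the tool. DESeq2, with a Wald test on the same libraries and thresholds, called 8 members lower in psoas than in EDL (Cd14, Csf1r, Cx3cr1, Fcer1g, Fcgr3, Folr2, Mrc1 and Ms4a7), where it called 6.8% of all genes. It called Fcgr3 and Mrc1 lower in soleus than in EDL (9.43% of all genes) and 0 between soleus and psoas (8.58%).

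**Figure D2:**
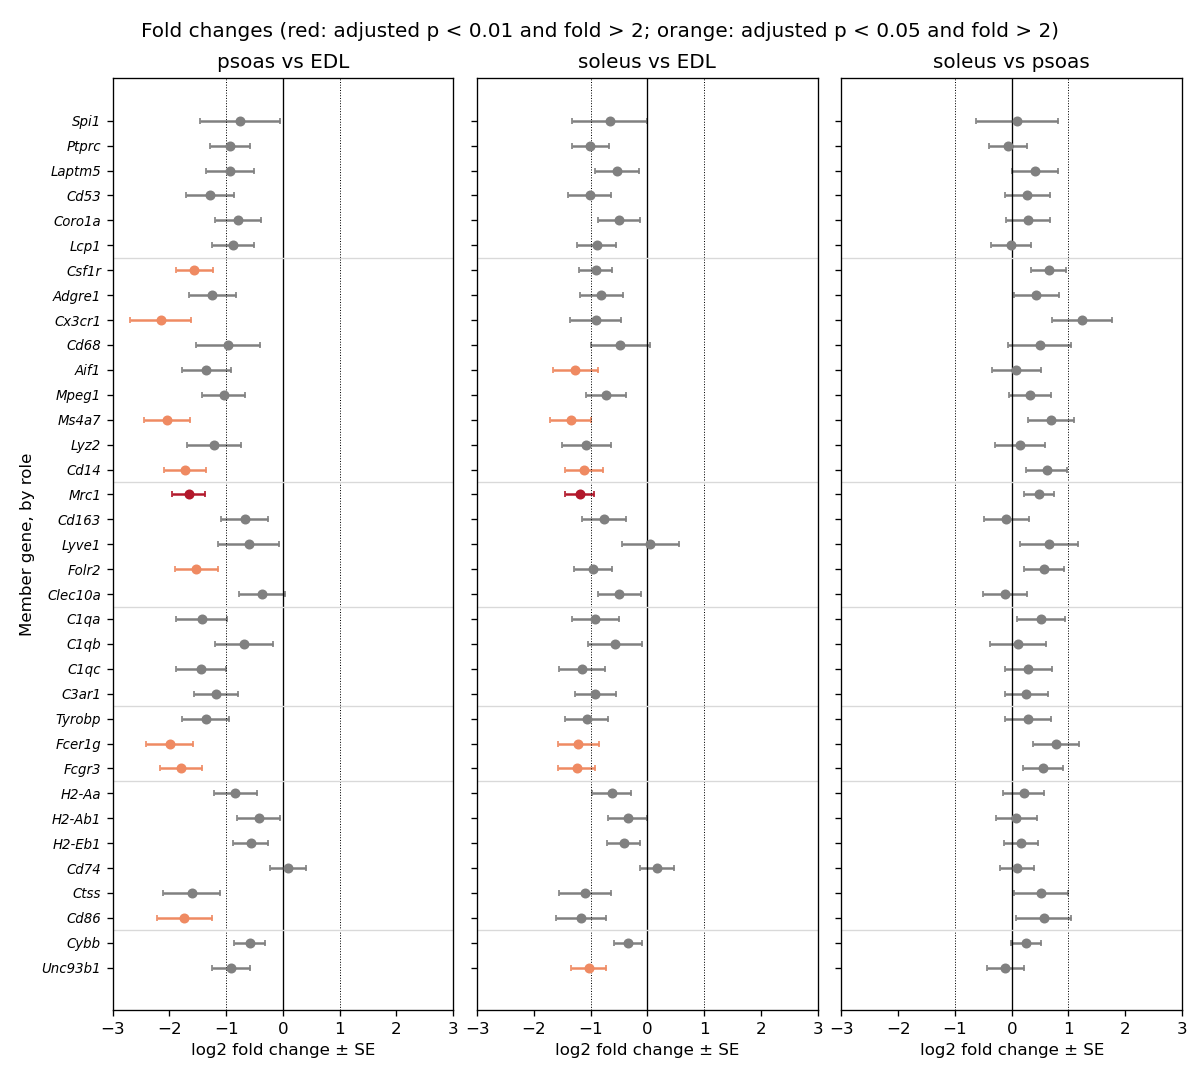
Log2 fold change of each member (points, with bars of ± 1 SE from edgeR) in the 3 comparisons, with dotted lines at a 2-fold difference. Mrc1 is the only red point, in the first 2 panels, nearly all points there lie left of 0, and the points of the third panel lie around or slightly right of it.

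The difference between EDL and the other muscles has to be read with the trimming. Among trimmed libraries alone, psoas 1 and psoas 2 were lower than EDL 1 and EDL 2 in the fitted fold change of 35 of the 35 members (50.5% of all genes), with a median of -1.19. Among untrimmed libraries psoas 3 was lower than EDL 3 for 31 (51.1%), with a median of -1.41. The 4 soleus libraries, however, were lower than EDL 3 for only 17 of the 35, near the share of all genes (50.8%), with a median of 0.04. They were higher than psoas 3 for all 35, with a median of 1.13, where 45.8% of all genes were lower in soleus. In these fits EDL 3 and psoas 3 are lone samples assumed to vary like the soleus libraries. With trimming as a covariate, 11 members were called lower in psoas than in EDL (3.75% of all genes called in either direction), 0 were called between soleus and EDL (2.3%), and 4 (C1qa, C1qc, Csf1r and Ctss) were called higher in soleus than in psoas (3.51%). With sex as the covariate and soleus 3 left out, the counts were 12, 0 and 1 in the same order (5.37%, 4.88% and 5.95% of all genes). With a proxy of the sequencing run made from trimming and age they were 12, 0 and 2 (4.7%, 1.56% and 2.95%). Trimming, sex and sequencing depth moved together in EDL and psoas, whose trimmed libraries came from mice of 42 and 54 days and whose untrimmed libraries from mice of 44 days, and the part of each in these values was not tested.

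**Figure D3:**
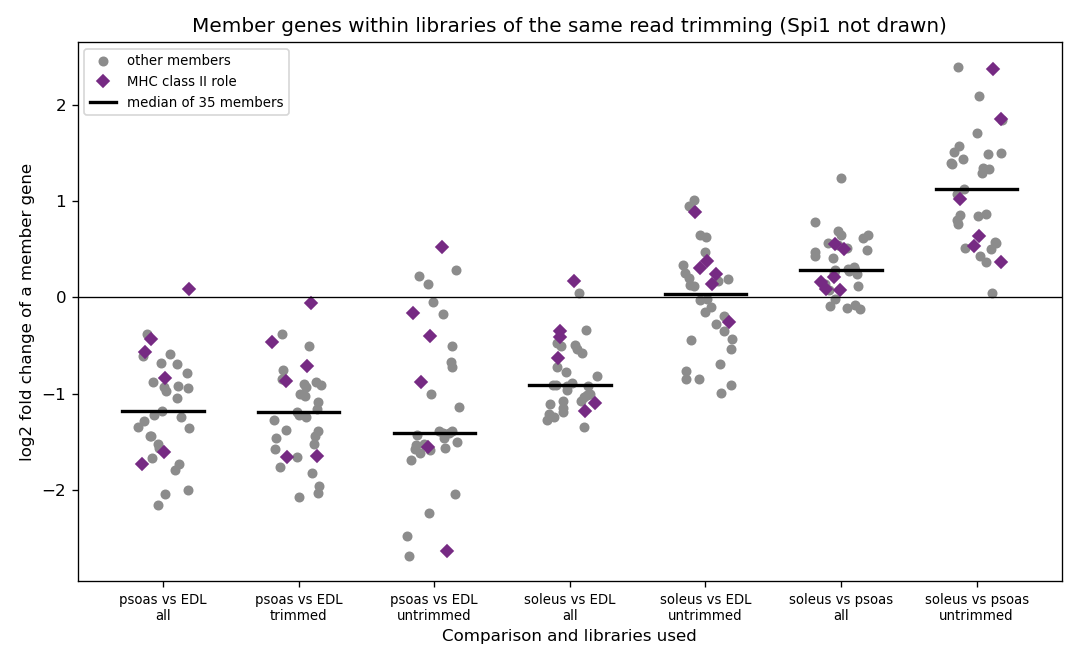
Log2 fold changes of 34 members (Spi1 is not drawn, since psoas 3 held 0 of its reads) over all libraries and within libraries of the same trimming class, with the median of the 35 members as a line. The medians of psoas against EDL stay between -1.41 and -1.18, the median of soleus against EDL goes from -0.91 to 0.04, and that of soleus against psoas from 0.29 to 1.13.

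The upstream sequences of 4 members are shown to set 2 class II genes beside Mrc1, the gene called lower in psoas and soleus than in EDL, and C1qc. H2-Aa, H2-Eb1 and C1qc each overlapped in all 3 muscles. They come from RefSeq (GRCm38.p6, the same assembly as GRCm38.p4 of the files), stop before the annotated start of the gene, and run 5′ to 3′ on the gene's strand. Among the 23 members with an entry there were 29 start sites. Class II promoters share a set of boxes through which a common activator acts, one of which, the Y box, reads CTGATTGG and contains the reverse complement of CCAAT. It is in capitals in the first pair. The motif AGGAAGT, a core bound by the myeloid factor encoded by Spi1, is in capitals in the second pair, on either strand and so also as ACTTCCT.
H2-Aa, chr17:34287824-34288073, - strand: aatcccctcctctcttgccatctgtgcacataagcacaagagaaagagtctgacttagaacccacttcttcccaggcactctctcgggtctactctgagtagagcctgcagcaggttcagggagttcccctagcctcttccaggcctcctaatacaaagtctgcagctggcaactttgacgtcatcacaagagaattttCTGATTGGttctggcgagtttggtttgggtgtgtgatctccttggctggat
H2-Eb1, chr17:34305617-34305866, + strand: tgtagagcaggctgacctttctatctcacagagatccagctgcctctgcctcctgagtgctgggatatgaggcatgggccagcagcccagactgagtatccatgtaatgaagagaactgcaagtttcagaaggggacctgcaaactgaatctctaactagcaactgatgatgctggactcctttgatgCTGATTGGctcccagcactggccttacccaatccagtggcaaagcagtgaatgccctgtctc
Mrc1, chr2:14229164-14229391, + strand: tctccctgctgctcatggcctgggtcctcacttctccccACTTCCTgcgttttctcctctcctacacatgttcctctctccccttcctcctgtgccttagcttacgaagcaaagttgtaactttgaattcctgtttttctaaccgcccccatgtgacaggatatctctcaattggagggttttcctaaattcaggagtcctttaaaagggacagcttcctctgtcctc
C1qc, chr4:136893066-136893164, - strand: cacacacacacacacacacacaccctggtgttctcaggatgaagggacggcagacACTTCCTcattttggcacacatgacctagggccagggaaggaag

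In the 250 bases before a start site, on either strand, CTGATTGG was found at 2 of the 29 sites of the members, H2-Aa and H2-Eb1, and at 3.83% of all 32851 sites, and CCAAT at 10 against 33.8%. AGGAAGT was found at 7 sites of 6 members (C1qb, C1qc, Folr2, Lyz2, Mrc1 and Ptprc) against 7.69% of all sites. The overlapping motifs GAGGAA and GAGGAAGT were at 11 sites (23.3%) and at 1 site, that of C1qc (2.44%). The interferon-pathway motif TTCCNNGAA was at 0 sites (4.06%), the class II X box variant CCTAGCAAC at 0 (0.694%), and TGAGTCA at those of C3ar1, Cd68 and Folr2 (4.46%). A match says only that the letters are present. C1qa and H2-Ab1 had no entry.

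Among the scavenger receptors, Mrc1 encodes the macrophage mannose receptor, which takes up glycoproteins and collagen fragments, and lies at chr2:14229392-14332057 (+ strand, ENSMUSG00000026712) in GRCm38. Its normalized CPM was 69.5, 66 and 35.2 in EDL 1 to 3, 21, 19.1 and 13.6 in psoas 1 to 3, and 33.5, 22.5, 20.4 and 23.5 in soleus 1 to 4. All 3 EDL libraries lay above all 7 others, with soleus 1 the closest to them, and psoas 3 was the lowest. Its level fell 3.17-fold in psoas relative to EDL, with a log2 fold change of -1.66 ± 0.28 (adjusted p = 0.00658), and 2.28-fold in soleus, with a log2 fold change of -1.19 ± 0.26 (adjusted p = 0.00967). Leaving out EDL 1, EDL 2, psoas 1, psoas 2, psoas 3, soleus 2 or soleus 4 in turn raised the adjusted p for psoas to between 0.0104 and 0.029, which ended the call. For soleus it rose to between 0.0101 and 0.048 without EDL 1, EDL 2, psoas 1, psoas 2, soleus 2, soleus 3 or soleus 4. The fold change stayed over 2 each time. With trimming as a covariate the log2 fold change was -1.63 for psoas (adjusted p = 0.0014) and -0.62 for soleus (adjusted p = 0.13).

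Folr2, the beta folate receptor of tissue-resident macrophages, at chr7:101839988-101857194 (- strand, ENSMUSG00000032725), had 11.3, 14.3 and 6.04 in EDL 1 to 3, 4.38, 4.63 and 1.91 in psoas 1 to 3, and 7.53, 4.99, 4.78 and 4.54 in soleus 1 to 4 normalized CPM. Psoas lay below EDL without overlap, and soleus 1 exceeded EDL 3. Its log2 fold change was -1.53 ± 0.38 (adjusted p = 0.0268) in psoas and -0.96 ± 0.34 in soleus. Of its exon bases, 63.1% are shared with the predicted gene Gm10602, and since the use of strand in counting is not stated, its reads could not be assigned with certainty. Lyve1, the hyaluronan receptor of perivascular macrophages and of lymphatic endothelium, had 7.96, 11 and 3.79 in EDL 1 to 3, 8.15, 5.14 and 1.49 in psoas 1 to 3, and 13.1, 7.33, 5.82 and 5.49 in soleus 1 to 4 normalized CPM. Its highest value was in soleus 1 and its lowest in psoas 3, and all 3 muscles overlapped. Cd163, the receptor for hemoglobin bound to haptoglobin, averaged 16.5 ± 9.21 in EDL, 10.3 ± 2.93 in psoas and 9.73 ± 2.92 in soleus (mean ± SD), and the galactose-binding lectin Clec10a averaged 2.36 ± 0.866 in EDL, 1.83 ± 0.836 in psoas and 1.71 ± 0.51 in soleus. Their log2 fold changes for psoas were -0.68 ± 0.42 and -0.38 ± 0.41, and in both genes the 3 muscles overlapped.

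**Figure D4:**
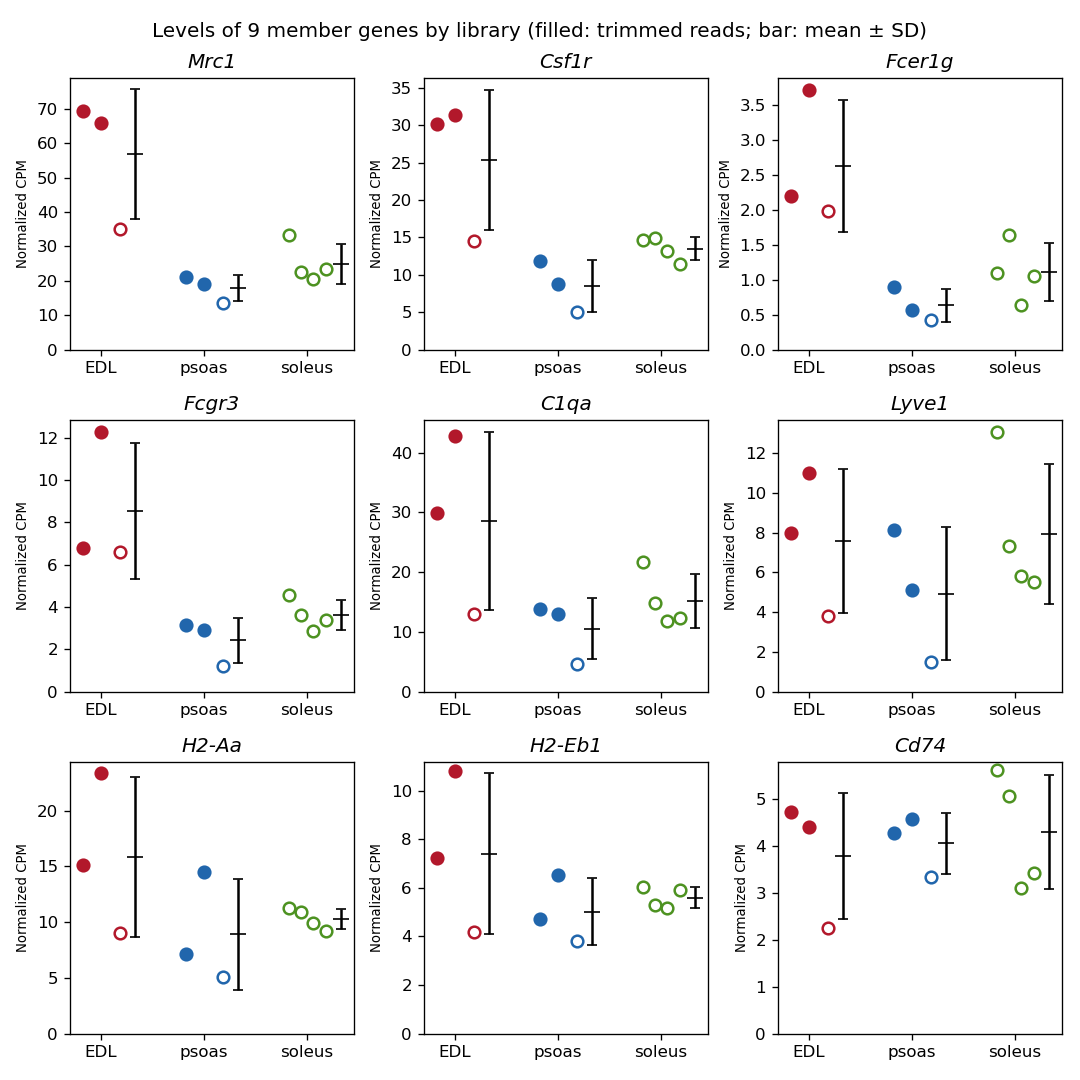
Normalized CPM of 9 members in every library (points, filled where reads were trimmed) with the mean ± SD of each muscle beside them, each axis starting at 0. In Mrc1, Fcer1g and Fcgr3 the 3 EDL points lie above all others, in Csf1r and C1qa the untrimmed EDL point lies at the level of soleus, and in Cd74 all 3 muscles overlap.

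The 9 genes of macrophage identity had negative log2 fold changes in psoas and in soleus relative to EDL, with medians of -1.35 and -0.91. At an adjusted p below 0.05 and a fold change over 2, 4 of them were lower in psoas (5.05% of all genes) and 3 in soleus (6.02%). At an adjusted p below 0.01, 0 of the 9 were called in either comparison. Csf1r, the receptor for the growth factors on which macrophages depend for survival, had 30.2, 31.4 and 14.6 in EDL 1 to 3, 11.8, 8.81 and 4.96 in psoas 1 to 3, and 14.6, 14.9, 13.2 and 11.4 in soleus 1 to 4 normalized CPM. Every psoas library was below every EDL library, while EDL 3 lay among the soleus libraries. The log2 fold change was -1.56 ± 0.33 (adjusted p = 0.0154) in psoas and -0.91 ± 0.30 in soleus. Of its exon bases 15.1% are shared with Hmgxb3.

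Ms4a7, a membrane-spanning protein of macrophages, at chr19:11321039-11336146 (- strand, ENSMUSG00000024672), had 2.08, 2.36 and 1.15 in EDL 1 to 3, 0.581, 0.444 and 0.283 in psoas 1 to 3, and 0.889, 0.538, 0.957 and 0.633 in soleus 1 to 4 normalized CPM. All 3 EDL libraries were above the rest. The log2 fold change was -2.04 ± 0.41 (adjusted p = 0.0127) in psoas and -1.35 ± 0.36 (adjusted p = 0.0254) in soleus. Lyz2, lysozyme M of myeloid cells, at chr10:117277331-117282321 (- strand, ENSMUSG00000069516), was the most abundant member per length, with 77.8 ± 36.7 in EDL, 34 ± 23.4 in psoas and 36.8 ± 7.83 in soleus FPKM (fragments scaled to gene length and library size, mean ± SD). Its normalized CPM was 124, 139 and 47.9 in EDL 1 to 3, 37, 77.9 and 18.6 in psoas 1 to 3, and 61.6, 46.2, 51.3 and 37.7 in soleus 1 to 4. Psoas 2 exceeded EDL 3 and all soleus libraries, so the muscles overlapped, and the log2 fold change was -1.22 ± 0.48 (adjusted p = 0.119) in psoas and -1.07 ± 0.44 in soleus. Its copy Lyz1 is close in sequence, and reads shared by the 2 could not be separated here.

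Cx3cr1, the receptor for fractalkine, is described because it had the largest fold change of the members in psoas and was chosen after its values were seen. It had 1.49, 1.56 and 1.37 in EDL 1 to 3, 0.369, 0.38 and 0.212 in psoas 1 to 3, and 0.274, 1.5, 0.638 and 0.581 in soleus 1 to 4 normalized CPM. The 3 EDL libraries lay within a narrow range, psoas was below them without overlap, and soleus spread from soleus 1, at the level of psoas, to soleus 2, at the level of EDL. The log2 fold change was -2.15 ± 0.54 (adjusted p = 0.0276) in psoas, -0.91 ± 0.45 in soleus relative to EDL and 1.24 ± 0.53 in soleus relative to psoas, and the psoas libraries held as few as 3 reads. Cd14, the coreceptor for bacterial lipopolysaccharide, had log2 fold changes of -1.73 ± 0.37 (adjusted p = 0.0164) in psoas and -1.11 ± 0.33 (adjusted p = 0.0382) in soleus, with all EDL libraries above all others. Aif1, a calcium-binding actin bundler, also had EDL above the rest without overlap, with -1.35 ± 0.43 (adjusted p = 0.0675) in psoas and -1.27 ± 0.40 (adjusted p = 0.0447) in soleus. The other 3 genes, Adgre1, Cd68 and Mpeg1, had log2 fold changes from -1.24 to -0.97 in psoas. In soleus they ran from -0.81 to -0.48, and EDL overlapped with both other muscles in each.

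All 3 genes of the adaptor and Fc receptor role separated EDL from both other muscles, the untrimmed EDL library included. Over all genes 16.3% lay below EDL without overlap in psoas and 14.3% in soleus. Tyrobp and Fcer1g encode small adaptors that carry the activating signal of receptors lacking their own, and Fcgr3 encodes a low-affinity receptor for immunoglobulin G. Fcer1g, at chr1:171229572-171234365 (- strand, ENSMUSG00000058715), had 2.2, 3.71 and 1.98 in EDL 1 to 3, 0.897, 0.571 and 0.425 in psoas 1 to 3, and 1.09, 1.64, 0.638 and 1.06 in soleus 1 to 4 normalized CPM. Fcgr3, at chr1:171051174-171064935 (- strand, ENSMUSG00000059498), had 6.8, 12.3 and 6.59 in EDL 1 to 3, 3.17, 2.92 and 1.2 in psoas 1 to 3, and 4.58, 3.62, 2.87 and 3.38 in soleus 1 to 4. Tyrobp, the highest of the 3 per length with 8.4 ± 3.01 in EDL, 3.34 ± 1.56 in psoas and 4.02 ± 1.38 in soleus FPKM, had 6.54, 7.09 and 3.35 in EDL 1 to 3, 2.08, 3.3 and 1.27 in psoas 1 to 3, and 3.28, 2.96, 3.27 and 1.37 in soleus 1 to 4 normalized CPM. EDL was above all other libraries in each of them, though in Tyrobp only narrowly, with EDL 3 at 3.35 and psoas 2 at 3.3. The log2 fold change in psoas was -2.0 ± 0.42 (adjusted p = 0.0149) for Fcer1g, -1.79 ± 0.37 (adjusted p = 0.0136) for Fcgr3 and -1.36 ± 0.42 (adjusted p = 0.0569) for Tyrobp. In soleus it was -1.21 ± 0.37 (adjusted p = 0.0402), -1.25 ± 0.33 (adjusted p = 0.0236) and -1.07 ± 0.38 (adjusted p = 0.0689) in the same order. Against EDL 3, here a lone sample, the 4 soleus libraries still had fitted log2 fold changes of -0.85, -0.91 and -0.35. Fcgr3 is close in sequence to other Fc gamma receptor genes, and the handling of reads that match several of them is not stated.

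In the complement role, C1qa, C1qb and C1qc lie side by side on chromosome 4 and encode the chains of the recognition subunit of the classical pathway, which tissue macrophages produce. C1qa, at chr4:136895917-136898803 (- strand, ENSMUSG00000036887), had 29.9, 42.7 and 13 in EDL 1 to 3, 13.9, 13.1 and 4.6 in psoas 1 to 3, and 21.6, 14.8, 11.8 and 12.3 in soleus 1 to 4 normalized CPM. C1qc, at chr4:136889804-136893065 (- strand, ENSMUSG00000036896), had 19.3, 26.1 and 7.96 in EDL 1 to 3, 7.92, 8.81 and 2.83 in psoas 1 to 3, and 10.5, 8.43, 6.94 and 6.33 in soleus 1 to 4. Both were highest in EDL 2 and lowest in psoas 3, and EDL 3 lay among the soleus libraries and below psoas 2. Log2 fold changes in psoas were -1.43 ± 0.46 (adjusted p = 0.0641) for C1qa and -1.44 ± 0.44 (adjusted p = 0.0584) for C1qc, and in soleus -0.92 ± 0.41 and -1.15 ± 0.41. The reads of C1qc stood to those of C1qa in a ratio that ran over the libraries from 0.487 to 0.675. C1qb was counted far lower, with 2.34 ± 1.39 in EDL, 1.47 ± 0.529 in psoas and 1.57 ± 0.629 in soleus FPKM where C1qa had 27.2 ± 14.3 in EDL, 10.2 ± 5.04 in psoas and 14.3 ± 4.29 in soleus and C1qc 9.12 ± 4.73 in EDL, 3.4 ± 1.71 in psoas and 4.11 ± 0.954 in soleus, and its log2 fold change in psoas was -0.69 ± 0.51. C3ar1, the receptor for the anaphylatoxin released from C3, averaged 2.35 ± 0.617 in EDL, 0.997 ± 0.585 in psoas and 1.27 ± 0.211 in soleus normalized CPM, and all soleus libraries were below all EDL libraries, with a log2 fold change of -0.92 ± 0.36.

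The chains of MHC class II and the invariant chain overlapped in all 3 muscles. H2-Aa, H2-Ab1 and H2-Eb1 encode chains of the peptide-binding heterodimers and lie together on chromosome 17, and Cd74 encodes the invariant chain that occupies their groove until peptide loading. H2-Aa, at chr17:34282744-34287823 (- strand, ENSMUSG00000036594), had 15.1, 23.3 and 9.01 in EDL 1 to 3, 7.18, 14.5 and 5.03 in psoas 1 to 3, and 11.2, 10.9, 9.89 and 9.18 in soleus 1 to 4 normalized CPM. H2-Eb1, at chr17:34305867-34316674 (+ strand, ENSMUSG00000060586), had 7.24, 10.8 and 4.17 in EDL 1 to 3, 4.72, 6.53 and 3.82 in psoas 1 to 3, and 6.02, 5.29, 5.18 and 5.91 in soleus 1 to 4. In both genes EDL 3 lay below every soleus library and below psoas 2, and EDL 1 and EDL 2 were the highest. H2-Ab1, at chr17:34257689-34269419 (+ strand, ENSMUSG00000073421), had 3.43, 9.18 and 3.46 in EDL 1 to 3, 4.41, 4.88 and 2.69 in psoas 1 to 3, and 4.17, 4.82, 3.59 and 4.33 in soleus 1 to 4, with EDL 2 far above the other 9 libraries. Cd74 had 4.72, 4.41 and 2.25 in EDL 1 to 3, 4.27, 4.57 and 3.33 in psoas 1 to 3, and 5.61, 5.05, 3.11 and 3.43 in soleus 1 to 4, and its lowest value was in EDL 3. The log2 fold change in psoas was -0.84 ± 0.38 (adjusted p = 0.167) for H2-Aa, -0.57 ± 0.31 (adjusted p = 0.254) for H2-Eb1, -0.43 ± 0.38 (adjusted p = 0.491) for H2-Ab1 and 0.09 ± 0.32 (adjusted p = 0.894) for Cd74. In soleus relative to EDL the values were -0.63, -0.41, -0.35 and 0.17. These 4 genes were described together after their values were seen, reads of the 3 H2 genes can be shared with related class II genes, and the sign for Cd74 in psoas turned under several settings.

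The other 2 genes of the role act beside these chains. Ctss, cathepsin S, which trims the invariant chain, at chr3:95526786-95556403 (+ strand, ENSMUSG00000038642), was the highest of the role per length with 10.5 ± 6.48 in EDL, 3.48 ± 1.93 in psoas and 4.9 ± 1.01 in soleus FPKM. It had 14.9, 22.9 and 5.27 in EDL 1 to 3, 5.41, 6.85 and 1.84 in psoas 1 to 3, and 8.62, 6.22, 6.7 and 5.49 in soleus 1 to 4 normalized CPM. Cd86, a costimulatory ligand for T cells, at chr16:36603869-36666081 (- strand, ENSMUSG00000022901), had 2.8, 3.51 and 1.32 in EDL 1 to 3, 0.95, 1.08 and 0.212 in psoas 1 to 3, and 1.37, 0.837, 1.2 and 1.21 in soleus 1 to 4. In Ctss EDL 3 lay below every soleus library, whereas in Cd86 all EDL libraries were above all psoas libraries. Their log2 fold changes were -1.61 ± 0.50 (adjusted p = 0.0619) and -1.74 ± 0.49 (adjusted p = 0.0438) in psoas, and -1.1 ± 0.46 and -1.17 ± 0.44 in soleus.

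Ratios of reads within a library cancel its size and show how the members stood to each other. Mrc1 was taken as the denominator after its values were seen, so the ratios are given as a description. The ratio of Cd74 to Mrc1 was 0.0679, 0.0668 and 0.0641 in EDL 1 to 3, 0.203, 0.238 and 0.245 in psoas 1 to 3, and 0.168, 0.224, 0.152 and 0.146 in soleus 1 to 4. The 3 EDL libraries agreed closely, and all 7 others lay above them. H2-Eb1 to Mrc1 ranged over 0.104 to 0.164 in EDL, 0.225 to 0.341 in psoas and 0.18 to 0.254 in soleus, also with EDL below both other muscles, and Lyve1 to Mrc1 over 0.108 to 0.166 in EDL, 0.109 to 0.388 in psoas and 0.233 to 0.391 in soleus, with psoas 3 at the level of EDL. H2-Ab1 to Mrc1 ranged over 0.0494 to 0.139 in EDL, 0.198 to 0.255 in psoas and 0.125 to 0.214 in soleus, and H2-Aa to Mrc1 over 0.218 to 0.354 in EDL, 0.341 to 0.758 in psoas and 0.335 to 0.484 in soleus. In both of these ratios EDL and soleus overlapped. Outside the class II genes, Cd163 to Mrc1 ranged over 0.17 to 0.352 in EDL, 0.526 to 0.615 in psoas and 0.332 to 0.419 in soleus, with EDL below psoas. Csf1r to Mrc1 overlapped in all 3 muscles, at 0.442 ± 0.0312 in EDL, 0.462 ± 0.0988 in psoas and 0.557 ± 0.112 in soleus (mean ± SD).

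**Figure D5:**
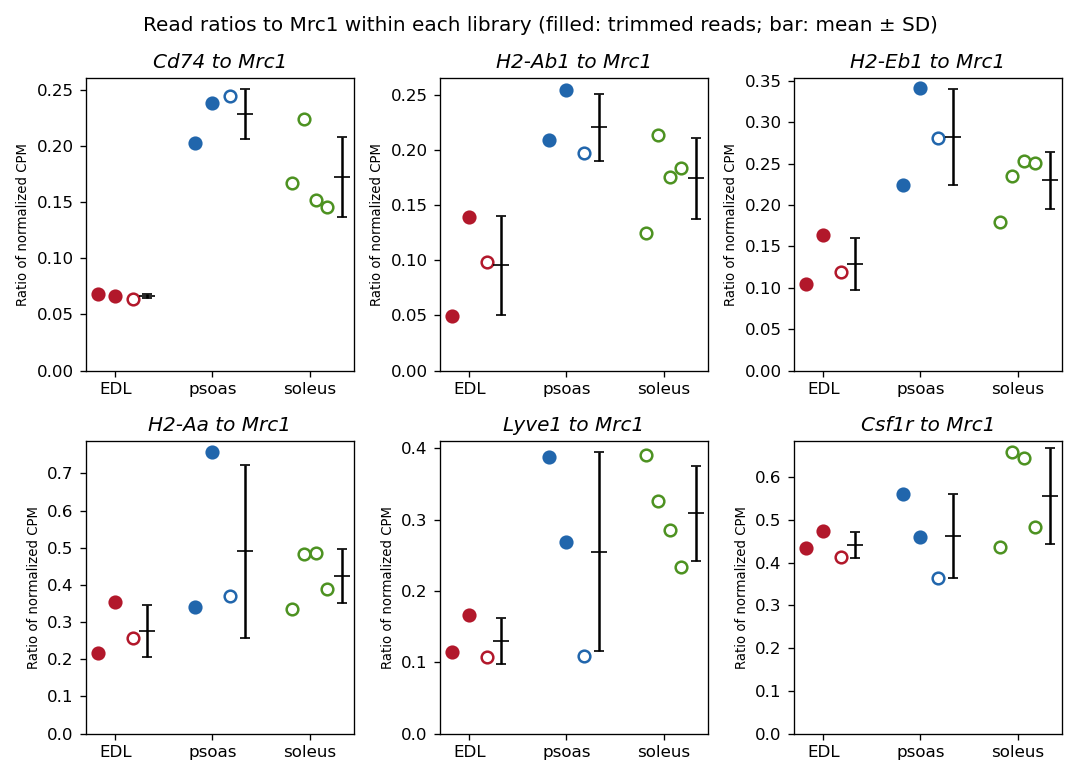
Ratio of the normalized CPM of 6 members to that of Mrc1 within each library (points, filled where reads were trimmed) with the mean ± SD of each muscle, each axis starting at 0. The 3 EDL points of Cd74 to Mrc1 lie between 0.0641 and 0.0679, below every other library, while those of Csf1r to Mrc1 overlap with both other muscles.

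The 6 general leukocyte genes had median log2 fold changes of -0.90 in psoas and -0.78 in soleus relative to EDL, and 0 of them separated the muscles without overlap. The share of all genes below EDL without overlap was 16.3% in psoas and 14.3% in soleus. Ptprc encodes the phosphatase CD45, carried by all nucleated blood cells, and lies at chr1:138062861-138175708 (- strand, ENSMUSG00000026395). It had 11.5, 11.5 and 4.83 in EDL 1 to 3, 4.59, 6.97 and 3.12 in psoas 1 to 3, and 5.61, 4.4, 4.07 and 4.54 in soleus 1 to 4 normalized CPM. EDL 1 and EDL 2 were above all others, and EDL 3 lay among soleus and below psoas 2. Cd53, a tetraspanin of leukocytes and the highest of the role per length (2.6 ± 0.982 in EDL, 1.1 ± 0.649 in psoas and 1.3 ± 0.308 in soleus FPKM), at chr3:106759921-106790149 (- strand, ENSMUSG00000040747), had 5.02, 6.03 and 2.69 in EDL 1 to 3, 1.66, 3.11 and 0.921 in psoas 1 to 3, and 3.08, 2.06, 2.15 and 1.9 in soleus 1 to 4 normalized CPM, with EDL 3 below psoas 2 and soleus 1. The log2 fold changes of Ptprc were -0.93 ± 0.35 (adjusted p = 0.108) in psoas and -1.0 ± 0.33 (adjusted p = 0.0518) in soleus, and those of Cd53 -1.29 ± 0.41 (adjusted p = 0.0679) and -1.01 ± 0.38. Laptm5, a lysosomal membrane protein, and Coro1a and Lcp1, actin-binding proteins of leukocytes, had log2 fold changes between -0.94 and -0.79 in psoas and overlapped in all 3 muscles. Spi1, the transcription factor that directs myeloid development, had at most 46 reads in a library and 0 in psoas 3, which allows up to 0.217 CPM there (95% limit for a count of 0, 3 reads, counting error only).

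Cybb, the catalytic subunit of the phagocyte oxidase, and Unc93b1, which carries nucleic acid sensing receptors to endosomes, made up the last role. Unc93b1, at chr19:3935186-3949340 (+ strand, ENSMUSG00000036908), had 6.63, 7.14 and 3.73 in EDL 1 to 3, 3.46, 3.87 and 1.91 in psoas 1 to 3, and 2.39, 3.86, 2.87 and 2.27 in soleus 1 to 4 normalized CPM. Cybb, at chrX:9435252-9487771 (- strand, ENSMUSG00000015340), had 3.6, 2.88 and 1.87 in EDL 1 to 3, 1.77, 2.16 and 1.7 in psoas 1 to 3, and 2.53, 2.24, 2.15 and 1.95 in soleus 1 to 4. EDL 1 and EDL 2 were the highest in both, and EDL 3 lay below psoas 2 and within or below the range of soleus. Unc93b1 had log2 fold changes of -0.92 ± 0.33 (adjusted p = 0.0957) in psoas and -1.03 ± 0.31 (adjusted p = 0.0386) in soleus, and Cybb of -0.59 ± 0.27 and -0.34 ± 0.25.

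Other genes of these pathways were read from lists drawn up with the earlier results in view. Of 15 further genes of the class II pathway, 12 had a row and 0 were called in any comparison. In psoas relative to EDL 10 of the 12 were lower (49.5% of all genes), with a median log2 fold change of -0.86. Without overlap 7 were lower in psoas (16.3% of all genes) and 1 was higher (13.4%). In soleus relative to EDL 11 were lower (53.1%), with a median of -0.63. Their 2 most abundant, the lysosomal proteases Ctsl and Lgmn, averaged 144 ± 13 in EDL, 79.5 ± 28.3 in psoas and 126 ± 8.48 in soleus and 16.6 ± 3.67 in EDL, 11.7 ± 1.12 in psoas and 22.7 ± 2.68 in soleus normalized CPM. All 15 genes of the class I pathway had a row and 0 were called. Of these, 12 were lower in psoas and 10 in soleus than in EDL, with median log2 fold changes of -0.41 and -0.14. B2m, the common light chain, averaged 88 ± 35.9 in EDL, 52.7 ± 18.1 in psoas and 52.9 ± 7.4 in soleus, and the heavy chain H2-D1 33.3 ± 11.3 in EDL, 28.3 ± 3.19 in psoas and 31.9 ± 3.81 in soleus. Of 19 further complement genes 16 had a row. Serping1, the inhibitor of the first complement proteases, was called lower in psoas (log2 fold change -1.81 ± 0.27 (adjusted p = 0.00352)) and in soleus (-1.15 ± 0.24 (adjusted p = 0.00842)) than in EDL and was the 1 call in each, and 0 were called between soleus and psoas.

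Among 13 of 16 macrophage growth factors and attractants with a row, Cx3cl1, the ligand of Cx3cr1, was the 1 call. It was higher in soleus than in EDL, with 0.0851 ± 0.0216 in EDL, 0.174 ± 0.152 in psoas and 0.888 ± 0.377 in soleus normalized CPM and a log2 fold change of 3.35 ± 0.71 (adjusted p = 0.00909). Cx3cl1 had 0.0701, 0.0754 and 0.11 in EDL 1 to 3, where 3 reads amount to 0.068, 0.0627 and 0.2 CPM. Its fold change therefore rests on very few reads in EDL. The ligands of Csf1r, Csf1 and Il34, were not called and averaged 3.36 ± 0.341 in EDL, 1.88 ± 0.749 in psoas and 2.11 ± 0.896 in soleus, and 0.605 ± 0.164 in EDL, 0.322 ± 0.119 in psoas and 0.726 ± 0.136 in soleus. Of 34 other macrophage genes 32 had a row. Gpnmb, a lysosomal glycoprotein of lipid-laden macrophages, and the tetraspanin Cd9 were called lower in psoas than in EDL, with log2 fold changes of -3.57 ± 0.46 (adjusted p = 0.00205) and -1.32 ± 0.19 (adjusted p = 0.00297), and 0 were higher. In soleus the transcription factor Maf and the protease Ctsc were called lower than in EDL (-2.23 ± 0.22 (adjusted p = 0.000114) and -1.57 ± 0.16 (adjusted p = 0.00015)), and the fatty acid transporter Cd36 higher (1.59 ± 0.27 (adjusted p = 0.00275)). Between soleus and psoas, Gpnmb (2.44 ± 0.45 (adjusted p = 0.00449)) and Cd36 (1.49 ± 0.27 (adjusted p = 0.00372)) were called higher and Maf (-2.67 ± 0.22 (adjusted p = 6.46e-05)) lower in soleus. Cd36 is also expressed by muscle fibers and endothelium. Of 16 inflammatory cytokines and enzymes only 5 had a row, 0 were called, and their sum reached 8.93 normalized CPM at most, with Spp1 at 0.581 ± 0.188 in EDL, 0.85 ± 0.659 in psoas and 2.2 ± 2.11 in soleus and Cxcl1 at 1.3 ± 0.64 in EDL, 0.128 ± 0.0697 in psoas and 0.677 ± 0.999 in soleus. Il1b, Tnf, Il6 and Il10 were among those without a row.

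Markers of other blood cells differed widely in level between the lists. None of 13 T and NK cell markers had a row. Dendritic cell markers summed to 5.93 to 10.5 in EDL, 3.89 to 6.78 in psoas and 3.54 to 7.1 in soleus normalized CPM over 6 genes, of which 0 were called, with Zbtb46 at 3.43 ± 0.883 in EDL, 2.76 ± 1.11 in psoas and 2.5 ± 1.02 in soleus and Siglech at 1.61 ± 1.11 in EDL, 0.811 ± 0.426 in psoas and 0.502 ± 0.334 in soleus. B cell markers, with 4 genes, summed to 6.76 to 12 in EDL, 15.6 to 85.1 in psoas and 1.85 to 7.34 in soleus, almost all of it Ighm, which was called lower in soleus than in psoas (-3.95 ± 0.57 (adjusted p = 0.00104)) and was high in psoas 1 and psoas 2. B cells also present antigen on class II, and the part of this signal in the class II values was not tested. Neutrophil markers, with 6 genes, summed to 8.69 to 15.7 in EDL, 9.06 to 20.5 in psoas and 1.95 to 4.38 in soleus. Most of the sum in every library was the chemokine receptor Cxcr2, while S100a8, S100a9, Retnlg and Csf3r stayed below 1 in each. Cxcr2 was called lower in soleus than in EDL (-2.44 ± 0.48 (adjusted p = 0.00579)) and than in psoas (-2.73 ± 0.48 (adjusted p = 0.00319)). Mast cell markers, with 6 genes, summed to 14.8 to 23.4 in EDL, 3.04 to 6.15 in psoas and 10.2 to 16.5 in soleus. The mast cell proteases Mcpt4, Tpsb2 and Cpa3 were called lower in psoas than in EDL (-2.24 ± 0.32 (adjusted p = 0.0031), -2.93 ± 0.48 (adjusted p = 0.00594) and -2.02 ± 0.36 (adjusted p = 0.00776)), and Mcpt4 was called higher in soleus than in psoas (1.79 ± 0.31 (adjusted p = 0.00318)). Erythroid markers, with 6 genes, summed to 5.82 to 73.8 in EDL, 16.8 to 137 in psoas and 3.54 to 25.8 in soleus with 0 called, after depletion of globin RNA, with Hbb-bs at 13.4 ± 12.9 in EDL, 23 ± 22.3 in psoas and 4.43 ± 4.13 in soleus and Alas2 at 14.9 ± 9.77 in EDL, 16.6 ± 16.1 in psoas and 3.02 ± 1.08 in soleus.

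Fibroblast and tendon markers include genes that were lower in psoas than in EDL. Fibroblast markers, with 8 genes, summed to 2017 to 3576 in EDL, 661 to 1020.5 in psoas and 693 to 1319.7 in soleus normalized CPM. The progenitor marker Pi16 and the proteoglycan gene Dcn were called lower in psoas than in EDL (-1.62 ± 0.26 (adjusted p = 0.00558) and -1.7 ± 0.29 (adjusted p = 0.00654)). Dcn, Pdgfra and Lum were called lower in soleus than in EDL (-1.57 ± 0.26 (adjusted p = 0.00269), -1.08 ± 0.20 (adjusted p = 0.00408) and -1.01 ± 0.22 (adjusted p = 0.00946)), and 0 were called between soleus and psoas. Tendon markers, with 7 genes, summed to 713 to 794 in EDL, 31.4 to 81.6 in psoas and 84.4 to 486 in soleus. All 7 were called lower in psoas than in EDL, by up to -5.34 ± 0.86 (adjusted p = 0.0052) for Col11a1, and 5 were called higher in soleus than in psoas, among them Scx (2.53 ± 0.46 (adjusted p = 0.00379)) and Tnmd (3.64 ± 0.66 (adjusted p = 0.00379)), while 0 were called between soleus and EDL, where all 7 log2 fold changes were negative with a median of -1.3. EDL 3 stood with EDL 1 and EDL 2 in the tendon sum, unlike in the members. In the fibroblast sum EDL 3 was the lowest EDL library, as in the members, with 3576, 2657 and 2017 in EDL 1 to 3. It still lay above all psoas and soleus libraries there. The endothelial sum was 252, 231 and 151 in EDL 1 to 3. All 8 fibroblast log2 fold changes were negative in psoas and in soleus relative to EDL, with medians of -1.39 and -1.04. Endothelial, adipocyte and Schwann cell markers, with 8, 7 and 5 genes, had 0 calls. Endothelial markers summed to 151 to 252 in EDL, 143 to 167 in psoas and 177 to 207 in soleus, with Pecam1 at 64.8 ± 22.6 in EDL, 43.6 ± 8.63 in psoas and 57.1 ± 4.31 in soleus. Kdr was at 49.5 ± 12.6 in EDL, 31.1 ± 5.07 in psoas and 43 ± 10.6 in soleus. Adipocyte markers summed to 106 to 222 in EDL, 88.7 to 189.5 in psoas and 151 to 312 in soleus, with Fabp4 at 152 ± 63 in EDL, 108 ± 30.8 in psoas and 133 ± 24.7 in soleus. Cfd was at 12.1 ± 5.78 in EDL, 15.9 ± 14.8 in psoas and 52.8 ± 31.9 in soleus. Schwann cell markers summed to 33.5 to 53.8 in EDL, 18.1 to 83.9 in psoas and 29.9 to 41.1 in soleus, with Pmp22 at 29.2 ± 7.08 in EDL, 22.8 ± 11.7 in psoas and 21.3 ± 3.3 in soleus. Mbp was at 9.92 ± 2.73 in EDL, 18.8 ± 14.2 in psoas and 9.38 ± 5.72 in soleus. Of 10 muscle markers 0 were called between psoas and EDL. In soleus, Myh7, Mb, Myh2 and Des were called higher and Myh4 lower than in EDL, and Myh7 and Mb were called higher and Myh4 and Ckm lower than in psoas. The part of fibroblast and tendon markers in the values of the members was not tested.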

How the data were processed

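Raw read counts per gene, as deposited by the authors for each of the 10 libraries, were used. Per the study's methods, total RNA was depleted of ribosomal and globin RNA, prepared with a stranded kit and sequenced as paired reads over several runs, which are not given per library. Reads of low quality were trimmed with Trimmomatic 0.32 (EDL 1, EDL 2, psoas 1, psoas 2), aligned with TopHat2 2.1.1 to GRCm38.p4 (mm10) and counted per gene. Genes with fewer than 3 libraries of at least 10 reads were removed, which leaves 16112. The use of strand and of reads with several alignments is not given in the sources used here. Trimmed and shorter reads, and counts on shared exons, could change the values.

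The members and lists were chosen with earlier results of these data known. Symbols and positions came from GENCODE M21 (GRCm38). The test was edgeR 4.0.16 (quasi-likelihood, TMM factors, 1 fit over the 3 muscles, Benjamini-Hochberg adjustment over all genes), called below an adjusted p of 0.01 where the fold change was also over 2, with the SE taken as the log2 fold change over the root of the F statistic. FPKM came from DESeq2 1.42.0. Alternatives were DESeq2, limma-voom 3.58.1 with the animal as a random effect, other scalings, filters, thresholds and covariates, and leaving out each library. Fits within trimming classes were added after seeing the data. Members described in full were those called and, per role, the most abundant per length and the 2 with the smallest adjusted p. Of each list, up to 4 called genes are named, or the 2 most abundant where 0 were called. No 2 libraries of a muscle agreed within sampling noise (chi-square per degree of freedom at least 33.6). The labels give separate muscle samples, and by the animal codes 3 animals gave 2 libraries each. The 7 codes exceed the number of mice in the methods, so a further pair may share a mouse, which the random effect does not cover. No pooled or unmapped columns were present.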

Additional observations from a re-analysis of the deposited data

Results flagged for a closer look

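Among the 4 soleus libraries, 35 members were examined for a library far from the rest by Dixon's ratio at its 95% critical value, of which chance would mark about 1 in 20, and 2 were marked. Folr2 in soleus 1 had 7.53 normalized CPM against 4.54 to 4.99 in the other soleus libraries (ratio 0.848). Tyrobp in soleus 4 had 1.37 against 2.96 to 3.28 (ratio 0.831). Soleus 1 was also the highest soleus library for the summed level of the members, and soleus 4 the lowest.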

How the results depend on the processing

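The count of members called in psoas relative to EDL was 1 and went to 8 with DESeq2 (6.8% of all genes). With a covariate it was 11 for read trimming (3.75%), 12 for a proxy of the sequencing run (4.7%) and 12 for sex with soleus 3 left out (5.37%). With the 2 muscles fitted alone it was 0, where 0.95% of all genes were called. At an adjusted p under 0.05 it was 9, against 5.05% of all genes lower in psoas. Leaving out each library gave 0 to 9, while the share of all genes called went from 0.379% (without psoas 2) to 5.98% (without EDL 3). For soleus relative to EDL the count was 1 and went to 2 with DESeq2 (9.43% of all genes). It was 0 with trimming (2.3%), run proxy (1.56%) or sex (4.88%) as a covariate and with the 2 muscles alone (5.44%). At an adjusted p under 0.05 it was 7, against 6.02% of all genes lower in soleus. Leaving out each library gave 0 to 5, with 2.39% (without EDL 1) to 9.38% (without EDL 3) of all genes. Both highest counts of members came without EDL 3, as did the highest shares of all genes. For soleus relative to psoas the count of 0 went to 4 with trimming (3.51% of all genes), 2 with the run proxy (2.95%) and 1 with sex (5.95%). It stayed 0 whichever library was left out, with 3.06% (without psoas 2) to 5.98% (without EDL 3) of all genes. The number of negative log2 fold changes stayed at 31 to 35 for psoas against EDL. For soleus against EDL it was 33 and went to 16 with trimming, 20 with the run proxy and 17 in untrimmed libraries, with 32 to 35 when a library was left out. For soleus against psoas it was 5 and went to 0 with trimming, run proxy or sex and in untrimmed libraries, 2 with the replicate block, 3 with limma-voom, and 2 to 15 when a library was left out (15 without psoas 3). The cause was not tested.

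Single members changed sign in psoas relative to EDL as follows. Cd74 had a log2 fold change of -0.00111 with upper-quartile scaling, -0.17 without EDL 3, -0.01 without psoas 2 and -0.061 in trimmed libraries, and -0.17 to 0.23 when a library was left out. H2-Ab1 had 0.22 without EDL 2 (-0.70 to 0.22 when a library was left out). In untrimmed libraries Lcp1 had 0.29, Cd163 0.22 and C1qb 0.14. For Mrc1 the log2 fold change ranged from -1.91 to -1.41 in psoas and from -1.44 to -0.54 in soleus relative to EDL over all alternatives.

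Same-numbered EDL and psoas libraries carried different animal codes, so replicate numbers were not taken as pairs in the main fit. Their correlations ran from 0.0881 to 0.503, and those of same-numbered libraries with soleus went down to -0.234. Differently numbered EDL and psoas libraries correlated at -0.443 to 0.298. Same-numbered EDL and psoas libraries also shared age, sex and trimming, so these values cannot tell whether the numbers pair them. With the replicate block 1, 1 and 0 members were called in psoas and soleus relative to EDL and in soleus relative to psoas. The shares of all genes were 0.906%, 3.64% and 3.35%. Libraries from the same animal correlated at 0.187 to 0.381. Depth limits the low members most. Only 25 of 35 had 10 or more reads in every library, and 34 were left by the filter of 1 CPM in 3 libraries.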
